A study of Mus musculus with 28 samples.

Results

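The chromatin remodeller genes described here are 36 of the 24984 rows of a table of nascent RNA in mouse embryonic stem cells (mESCs). They were chosen by name alone, as every row that starts with Smarc, Arid1, Arid2, Ino80, Baz1 or Baz2 or that is Chd followed only by digits. By family, 12 belong to SWI/SNF, 6 to ISWI, 9 to CHD and 5 to INO80. The other 4 rows are Smarcad1, Smarcal1, the noncoding RNA Ino80dos and the pseudogene Smarca5-ps. The assay was Bru-seq: 5-bromouridine (BrU) is fed to living cells, enters RNA as it is made, and lets an antibody pull out that RNA for sequencing. WT and EloA null mESCs were compared to ask what Elongin A, a factor known to speed RNA polymerase II (Pol II) in vitro, contributes to transcription in cells. Steady-state libraries came from untreated cells given 2 mM BrU for 10 min. Recovery libraries came from cells held in 1 µM flavopiridol for 60 min, washed, and then given BrU for 5 min or 10 min. Flavopiridol blocks the release of paused Pol II into genes, while Pol II already under way runs on. Each of the 3 conditions has 2 WT and 2 EloA null libraries, 12 in all. The study calls the 2 libraries of a group independent experiments, while the labels do not say whether they came from separate cultures, so p-values measure the spread between these libraries. Both genotypes were grown on fibroblast feeders with serum, LIF and the inhibitors PD0325901 and CHIR99021 and were freed of feeders for the experiments. The labels name the cells CCE28 in one protocol and CJ7 in another, and they name a single source of EloA null cells, so the genotype and the line cannot be told apart.

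Chromatin remodellers are machines built around an ATPase of the SNF2 type that slides, ejects or exchanges nucleosomes. SWI/SNF complexes (BAF and PBAF) open chromatin at enhancers and promoters, ISWI complexes space nucleosomes into regular arrays, CHD proteins include the ATPases of the NuRD complex, and the INO80 complex acts on nucleosomes that carry H2A.Z. In mESCs, a form of BAF with Smarca4 (BRG1), Smarcc1 and Arid1a is known to sustain self-renewal. Several families hold closely related genes whose products take the same place in a complex, so that the balance between them shapes which complex a cell makes.

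Library sizes worked out from the RPKM values ran from 9857539 to 28547382 reads, lowest at 5 min. RPKM, reads scaled by gene length and library size, is a level per length, and 0.5 RPKM served as the limit of expression. Eloa itself was higher in the libraries labeled EloA null, at 1.18 and 1.16 RPKM in WT and 1.96 and 1.89 RPKM in those libraries in steady state, and likewise in recovery. The labels do not say which part of Eloa was deleted, so RPKM over the gene does not check the genotype, and EloA null stands here for the label. The library titled EloA null replicate 1 in steady state also carries the genotype label wild type. All 12 pluripotency markers were above the limit in all 12 libraries, while 1 to 3 of 12 fibroblast markers (Fn1 the highest) and 1 to 4 of 10 neural markers were. Genes of chromosome 14 stood apart by genotype, with a median log2 difference of 0.50 in steady state against −0.04 to 0.13 on the other 19 chromosomes. Chd8 is the single remodeller gene of the list on that chromosome.

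In WT cells in steady state, 31 of the 36 genes were above the limit, with a median of 2.95 RPKM against 1.91 RPKM over all 10796 genes above it. Smarca5, which encodes the ISWI ATPase SNF2H, was the highest at 9.99 and 9.65 RPKM in the 2 WT libraries. Chd2 followed at 8.85 and 9.10 RPKM, and the BAF subunit gene Arid1a came next at 8.06 and 8.65 RPKM. The lowest was Smarca1, which encodes the other ISWI ATPase, SNF2L, at 0.0380 and 0.0348 RPKM. Of the 35 pairs of neighbors in this order, 20 did not overlap between libraries. Smarca5 was above Chd2 and Chd2 above Arid1a in both libraries, whereas Arid1a and Smarcad1 overlapped, as did the genes from Chd4 to Smarcb1, each with its neighbor, between 2.95 and 2.68 RPKM.

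Within SWI/SNF, 10 of 12 genes were above the limit. The ATPase gene Smarca4 was at 2.87 and 2.76 RPKM, and its paralog Smarca2 (BRM) was at 0.130 and 0.128 RPKM. Of the scaffold genes, Smarcc1 (BAF155) was at 3.37 and 3.74 RPKM and Smarcc2 (BAF170) at 1.11 and 1.04 RPKM. Arid1b, the alternative to Arid1a, was at 1.38 and 1.45 RPKM. In each of these 3 pairs the gene named for the BAF form of mESCs was the higher. Among the BAF60 genes, Smarcd1 was at 1.70 and 1.65 RPKM, Smarcd2 at 0.971 and 1.21 RPKM and Smarcd3 at 0.0872 and 0.117 RPKM. On the opposite strand Smarca2 overlaps 4931403E22Rik and Smarcd3 overlaps Chpf2, so the reads of these 2 low genes are uncertain. The genes of subunits common to BAF and PBAF lay near Smarca4, with Smarce1 at 3.27 ± 0.00142 RPKM and Smarcb1 at 2.68 ± 0.111 RPKM (SD, n = 2 each). Arid2, which marks PBAF, was at 2.23 ± 0.249 RPKM (SD, n = 2).

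In the ISWI family, the genes of the large partners of the ATPases were all above the limit. Baz1b (WSTF) was at 5.40 and 5.61 RPKM and Baz1a (ACF1) at 1.56 and 1.62 RPKM. Baz2a (TIP5, of the nucleolar complex NoRC) was at 3.95 and 3.80 RPKM and Baz2b at 3.00 and 3.28 RPKM. Baz1b was thus the highest of the 4 and Baz1a the lowest in both libraries.

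Among the CHD genes, Chd8, which is linked to autism, was at 4.00 and 3.97 RPKM, and Chd1, whose protein reads methylated histone H3 at active genes, was at 3.73 and 3.87 RPKM. The NuRD ATPase gene Chd4 was at 2.94 and 2.97 RPKM, far above the related genes Chd3 at 0.322 and 0.285 RPKM and Chd5, best known in neurons, at 0.170 and 0.137 RPKM. Chd7, the gene of CHARGE syndrome, was at 1.20 and 1.24 RPKM. Chd6 was at 2.92 ± 0.121 RPKM and Chd9 at 2.68 ± 0.0130 RPKM (SD, n = 2 each). Chd2 was therefore the highest CHD gene and Chd3 and Chd5 the 2 below the limit.

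All 5 INO80 genes were above the limit. The ATPase gene Ino80 was at 4.85 and 4.96 RPKM. Of the accessory subunits, Ino80e was at 6.74 and 6.32 RPKM, but it overlaps Doc2a and Hirip3 on the opposite strand, and the libraries keep strand, but whether the gene counts used it is not given in the sources used here. Ino80d was at 5.07 ± 0.176 RPKM, Ino80c at 2.68 ± 0.311 RPKM and Ino80b at 1.43 ± 0.132 RPKM (SD, n = 2 each). Of the other rows, Smarcad1, whose protein helps to restore silent chromatin after replication, was at 8.31 ± 1.01 RPKM, and Smarcal1, which encodes a helicase of stalled forks, was at 1.77 ± 0.157 RPKM. Ino80dos was at 4.35 ± 0.357 RPKM and Smarca5-ps, a copy of Smarca5 whose reads are hard to assign, at 1.42 ± 0.208 RPKM (SD, n = 2 each).

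**Figure D1:**
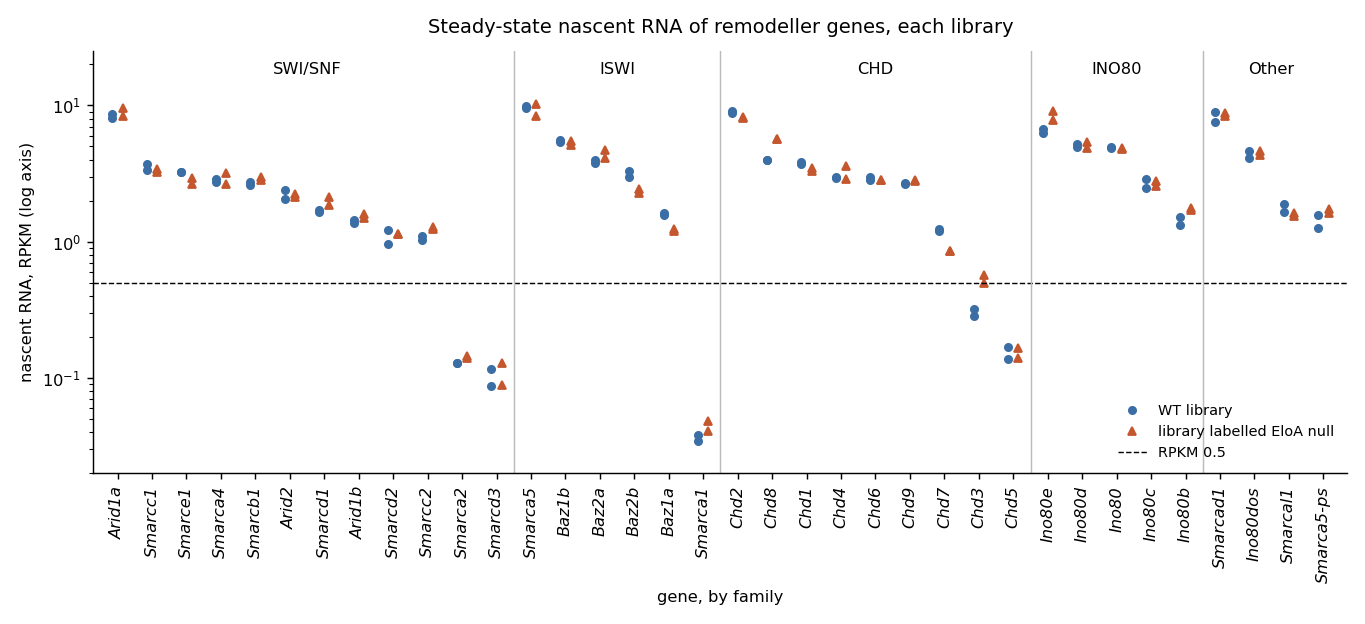
RPKM of each remodeller gene in steady state (vertical axis, log scale) in the 2 WT libraries (blue circles) and the 2 libraries labeled EloA null (orange triangles), by family and ordered by WT level; the dashed line marks 0.5 RPKM. In WT, Smarca2, Smarcd3, Smarca1, Chd3 and Chd5 lie below the line while the other 31 genes lie above it.

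Promoter sequences are shown for the pairs of ATPase genes with the widest steps in level, since each sets an active gene beside a related gene that is nearly silent. They are the 250 bases before the annotated start, from RefSeq on GRCm38.p6, 5′ to 3′ on the strand of the gene, and capitals mark the GC box (GGGCGG) and the CCAAT box (CCAAT) on either strand. Smarca4 is at chr9:21615919-21616168 (plus strand), Smarca2 at chr19:26604910-26605159 (plus strand), Smarca5 at chr8:80739460-80739709 (minus strand) and Smarca1 at chrX:47892614-47892863 (minus strand).
Smarca4: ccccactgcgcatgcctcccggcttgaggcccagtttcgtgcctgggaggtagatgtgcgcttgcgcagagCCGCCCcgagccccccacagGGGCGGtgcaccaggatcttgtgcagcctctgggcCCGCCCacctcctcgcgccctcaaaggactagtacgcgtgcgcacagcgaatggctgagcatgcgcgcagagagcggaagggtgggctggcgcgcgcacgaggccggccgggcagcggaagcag
Smarca2: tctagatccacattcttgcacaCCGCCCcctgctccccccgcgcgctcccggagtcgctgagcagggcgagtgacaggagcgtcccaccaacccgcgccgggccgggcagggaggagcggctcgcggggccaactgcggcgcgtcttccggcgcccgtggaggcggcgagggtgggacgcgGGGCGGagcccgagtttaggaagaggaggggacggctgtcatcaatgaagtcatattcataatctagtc
Smarca5: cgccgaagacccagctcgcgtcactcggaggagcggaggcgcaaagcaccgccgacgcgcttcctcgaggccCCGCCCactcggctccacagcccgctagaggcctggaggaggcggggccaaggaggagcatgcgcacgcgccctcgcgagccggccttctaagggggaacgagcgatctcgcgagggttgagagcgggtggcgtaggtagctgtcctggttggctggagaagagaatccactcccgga
Smarca1: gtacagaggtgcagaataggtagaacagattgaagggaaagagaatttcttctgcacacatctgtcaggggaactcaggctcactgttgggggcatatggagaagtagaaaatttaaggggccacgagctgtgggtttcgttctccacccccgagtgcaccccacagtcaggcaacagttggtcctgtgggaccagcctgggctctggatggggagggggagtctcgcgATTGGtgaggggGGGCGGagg

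The Smarca4 and Smarca2 windows were alike in composition although the genes differed in level, with 25 and 28 CpG dinucleotides and a GC content of 70.8% and 68.4%. In the other pair the Smarca5 window held 29 CpG dinucleotides and the Smarca1 window 6, with a GC content of 69.2% and 56.4%. All 4 windows held a GC box, and of the 4 the Smarca1 window alone held a CCAAT box. Of the 36 genes, 25 had a window at the start used here, with a median of 20 CpG dinucleotides against 6 over 32851 mouse promoter windows of the same length. A GC box was present in 21 of the 25 (84%), against 32.7% of all windows. The CCAAT box was present in 8 (32%), against 33.9%. A TATA box (TATAAA) was present in 1 (Baz2b, 4%), against 12.4%, and an E box (CACGTG) in 1 (Ino80e, 4%), against 6.02%. The 32851 windows were not limited to genes expressed in mESCs, and the shares over expressed genes were not counted. Both strands were searched and no motif contains another. A match describes letters in the window and is not a bound site.

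Ino80d and Ino80dos start back to back, and the 203 bases between their starts, at chr1:63114268-63114470 (plus strand shown, GC boxes in capitals), are printed because both rows share them.
Ino80d-Ino80dos: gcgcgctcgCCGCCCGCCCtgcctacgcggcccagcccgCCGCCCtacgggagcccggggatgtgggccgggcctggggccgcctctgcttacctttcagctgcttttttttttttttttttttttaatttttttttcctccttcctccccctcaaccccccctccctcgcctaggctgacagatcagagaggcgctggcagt
The stretch held 15 CpG dinucleotides and 62.1% GC, with its GC boxes on the side of the start of Ino80d, which runs on the minus strand. In WT, Ino80d was at 4.95 and 5.20 RPKM and Ino80dos at 4.60 and 4.10 RPKM. Ino80d was the higher in both libraries by a small margin. Ino80dos also overlaps Ndufs1 on the opposite strand, so its reads are uncertain.

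Library size cancels in the ratio between 2 genes of a library, and 12 pairs of related genes were compared. In WT in steady state, Smarca5 was 270-fold above Smarca1, with log2 ratios of 8.04 and 8.11 in the 2 libraries. Smarca4 was 21.8-fold above Smarca2, with log2 ratios of 4.47 and 4.43. The ISWI ATPase genes thus stood further apart than the SWI/SNF ATPase genes. Chd4 was 19.3-fold above Chd5 (4.11 and 4.43) and 9.73-fold above Chd3 (3.19 and 3.38). Smarcd1 was 16.6-fold above Smarcd3 (4.29 and 3.82), which rested on 16 to 25 reads of Smarcd3 in a library, and 1.55-fold above Smarcd2 (0.81 and 0.45). Arid1a was 5.89-fold above Arid1b (2.54 and 2.57). Smaller steps were seen for the remaining pairs. Smarcc1 was 3.31-fold above Smarcc2 (1.60 and 1.85) and Chd8 3.27-fold above Chd7 (1.74 and 1.68). Baz2a was 1.24-fold above Baz2b (0.40 and 0.21), the closest pair. Baz1a was at 0.290 of Baz1b (−1.79 and −1.79) and Chd1 at 0.423 of Chd2 (−1.24 and −1.23).

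The ratios were compared between genotypes in each condition, which made 36 comparisons. With 2 against 2 libraries the exact two-sided permutation test cannot give a p below 0.333, and the smallest adjusted p was 0.48. That smallest p is reached whenever the genotypes do not overlap, so the pairs are described by their values. Of the 36 comparisons, 25 did not overlap, and the share over other pairs of genes was not counted. Chd8/Chd7, Chd4/Chd3, Smarca5/Smarca1 and Chd1/Chd2 did not overlap, in the same direction, in all 3 conditions. In steady state the Chd8/Chd7 log2 ratio was 1.74 and 1.68 in WT and 2.75 and 2.72 in EloA null, a difference of 1.03 ± 0.03 (SE). The difference was 0.80 ± 0.13 at 5 min and 1.06 ± 0.21 at 10 min, and it joins a higher Chd8 to a lower Chd7. Chd8 lies on chromosome 14, whose tested genes had a median log2 difference of 0.50 in steady state, 0.46 at 5 min and 0.51 at 10 min. The part of that shift in the Chd8/Chd7 ratio was not tested. The Chd4/Chd3 log2 ratio was 3.19 and 3.38 in WT and 2.54 and 2.64 in EloA null in steady state, a difference of −0.69 ± 0.11 (SE), followed by −0.43 ± 0.25 at 5 min and −0.51 ± 0.36 at 10 min. In recovery Chd3 was below the limit of expression in both genotypes, on 31 to 76 reads in a library, and leaving out 1 library moved the difference between −0.23 (without WT replicate 2) and −0.63 (without WT replicate 1) at 5 min and between −0.16 and −0.86 at 10 min. The Smarca5/Smarca1 difference was −0.36 ± 0.05 in steady state, on 72 to 91 reads of Smarca1 in a library. It was −0.84 ± 0.61 at 5 min and −0.21 ± 0.19 at 10 min. With 0.1 RPKM added to both genes, which weighs most on the low Smarca1, these became −0.16, −0.17 and 0.04. Leaving out 1 library moved the 5 min difference between −0.29 (without WT replicate 1) and −1.39 (without WT replicate 2), and the 10 min difference was −0.03 without WT replicate 1. The Chd1/Chd2 difference was small throughout, at −0.03 ± 0.02 in steady state, −0.21 ± 0.11 at 5 min and −0.23 ± 0.13 at 10 min.

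Other pairs separated in some conditions. The Baz1a/Baz1b log2 ratio was −1.79 and −1.79 in WT and −2.09 and −2.15 in EloA null in steady state. Its difference was −0.33 ± 0.03 (SE) in steady state and −0.53 ± 0.03 at 10 min, while at 5 min the genotypes overlapped at 0.01 ± 0.03. The Baz2a/Baz2b difference was 0.61 ± 0.17 in steady state and 0.45 ± 0.12 at 10 min, with overlap at 5 min. The Smarcc1/Smarcc2 ratio was 1.60 and 1.85 in WT and 1.38 and 1.42 in EloA null in steady state, so the excess of Smarcc1 was smaller in EloA null, by −0.32 ± 0.12. At 5 min this pair overlapped, and at 10 min it differed by −0.70 ± 0.40, with the WT libraries far apart at 0.37 and 1.13. The Smarcd1/Smarcd2 ratio overlapped in steady state and was higher in EloA null without overlap at 5 min, by 0.72 ± 0.28, and at 10 min, by 0.50 ± 0.15. The Arid1a/Arid1b ratio overlapped in steady state, at 2.54 and 2.57 in WT and 2.49 and 2.59 in EloA null, and at 10 min, but not at 5 min, where it differed by −0.40 ± 0.18. The Smarca4/Smarca2 ratio overlapped in steady state, at 4.47 and 4.43 in WT and 4.20 and 4.50 in EloA null, and at 5 min, and it was lower in EloA null without overlap at 10 min, with a difference of −0.21 ± 0.15.

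**Figure D2:**
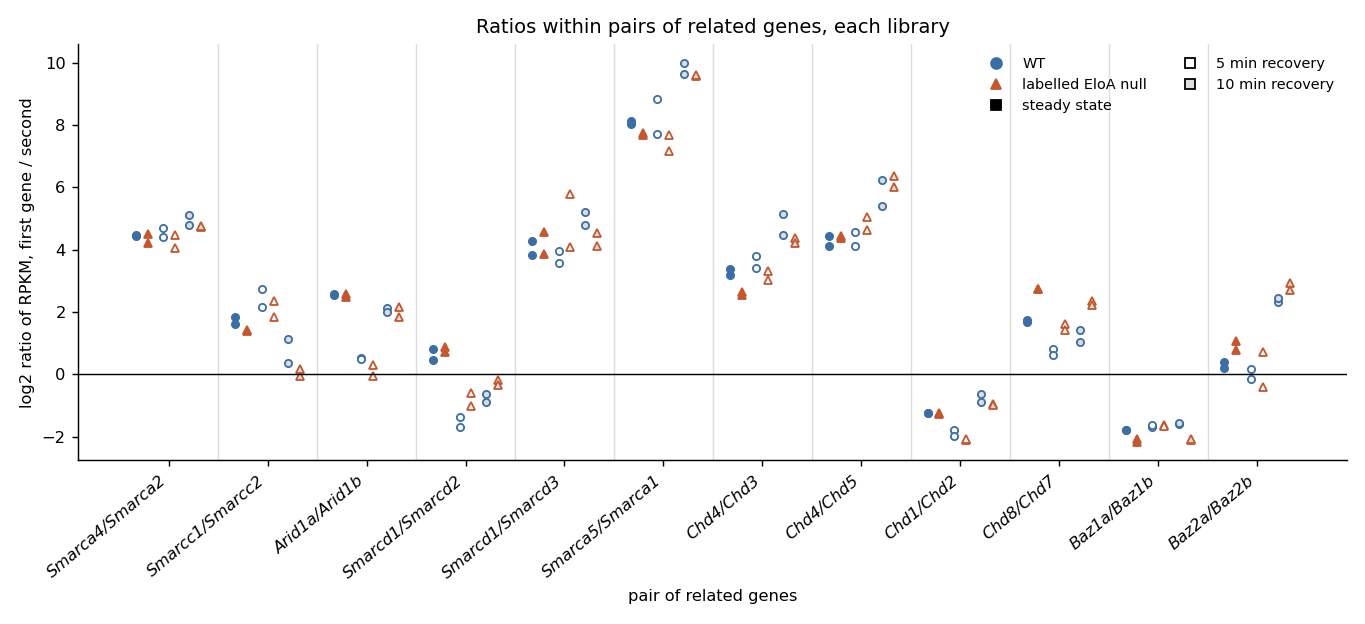
Log2 ratio of RPKM within each pair of related genes (vertical axis) in every library, with WT as blue circles and libraries labeled EloA null as orange triangles, filled for steady state, white for 5 min and grey for 10 min of recovery. The Chd8/Chd7 ratio lies higher and the Chd4/Chd3 ratio lower in the libraries labeled EloA null in all 3 conditions.

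Between genotypes in steady state, the median difference of the remodeller genes was close to that of all genes tested. Chd3 and Chd8 were higher and Chd7, Baz2b and Baz1a lower in both EloA null libraries. Chd3 was below the limit in WT, and Chd8 lies on chromosome 14, whose genes had a median difference of 0.50. Of the 36 genes, 32 had a mean above 0.5 RPKM in either genotype, as had 11347 rows in all, and 27 of the 32 differed by less than 1.3-fold in mean RPKM. The share within 1.3-fold over all genes was not counted, so these 27 are not read as a result. The median difference in log2(RPKM + 0.1) was 0.04 over the 32 genes and 0.03 over all genes tested. On this scale the change of low genes is understated. By limma, 0 of the 32 genes and 0% of all genes tested had an adjusted p below 0.05, and the smallest adjusted p among the 32 was 0.112, for Chd8. At an unadjusted p below 0.05 there were 7 of the 32 and 2083 of all genes. A limma fit of all 12 libraries, which shares the spread across conditions, called 132 genes in steady state (1.16%) and 0 of the 32.

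Past 1.5-fold in mean RPKM, 1 of the 32 genes was higher in EloA null, where 7.21% of all genes tested were, and 0 were lower, where 2.1% were. That gene was Chd3, at 0.322 and 0.285 RPKM in WT and 0.499 and 0.574 RPKM in EloA null. The groups did not overlap, but Chd3 passed the limit of expression only through the EloA null libraries, and each library held 146 to 304 of its reads. Its limma difference was 0.66 ± 0.19 (SE, adjusted p = 0.194). With the trend of each library with GC content removed, an alternative chosen after seeing the data, its difference was 0.41 and no gene of the list was past 1.5-fold. Without overlap between genotypes, 11 of the 32 genes were higher (34.4%) and 8 lower (25%), against 32% and 21.4% of all genes tested.

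The next genes by size of difference were Chd8 and Ino80e on the higher side. Chd8 was at 4.00 and 3.97 RPKM in WT and 5.71 and 5.63 RPKM in EloA null, a difference of 0.50 ± 0.08 (SE). Ino80e was at 6.74 and 6.32 RPKM in WT and 7.79 and 9.15 RPKM in EloA null, a difference of 0.37 ± 0.12, and its EloA null libraries lay apart from each other. With the GC trend removed the difference of Ino80e was 0.17. On the lower side, Chd7 was at 1.20 and 1.24 RPKM in WT and 0.852 and 0.852 RPKM in EloA null. Its libraries lay close together within each genotype, and the difference was −0.47 ± 0.09 (SE, adjusted p = 0.121). Baz2b was at 3.00 and 3.28 RPKM in WT and 2.42 and 2.27 RPKM in EloA null, a difference of −0.40 ± 0.09. Baz1a was at 1.56 and 1.62 RPKM in WT and 1.20 and 1.23 RPKM in EloA null, a difference of −0.36 ± 0.08. These 3 lower genes are 178044, 226378 and 93348 bases long, and the median difference of genes within 25% of their length was −0.04, −0.04 and −0.06.

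Without overlap in steady state, 32% of all genes tested were higher and 21.4% lower. In the SWI/SNF family, 4 of the 10 tested genes were higher and 1 lower. The higher genes were Smarcc2, at 1.11 and 1.04 against 1.24 and 1.28 RPKM (WT against EloA null), Smarcd1, at 1.70 and 1.65 against 1.87 and 2.12 RPKM, Smarcb1, at 2.76 and 2.60 against 2.83 and 2.97 RPKM, and Arid1b, at 1.38 and 1.45 against 1.499 and 1.59 RPKM. The lower gene was Smarce1, at 3.27 and 3.27 against 2.93 and 2.65 RPKM. The ATPase gene Smarca4 overlapped, at 2.87 and 2.76 against 2.65 and 3.18 RPKM, as did Smarcc1, at 3.37 and 3.74 against 3.22 and 3.44 RPKM, Arid1a, at 8.06 and 8.65 against 8.43 and 9.54 RPKM, and Smarcd2, at 0.971 and 1.21 against 1.14 and 1.15 RPKM. Smarca2, at 0.130 and 0.128 against 0.145 and 0.141 RPKM, and Smarcd3, at 0.0872 and 0.117 against 0.129 and 0.0885 RPKM, stayed below the limit in both genotypes.

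Among the 8 tested CHD genes, 3 were higher and 4 lower without overlap, against 32% and 21.4% of all genes tested. The higher ones include Chd3, which passed the limit only through the EloA null libraries, and Chd8 on chromosome 14. The ISWI and INO80 counts below are set against the same shares. Chd1 was at 3.73 and 3.87 against 3.48 and 3.32 RPKM and Chd2 at 8.85 and 9.10 against 8.28 and 8.11 RPKM, so that the EloA null libraries lay just under the WT libraries for both. Chd4 overlapped, at 2.94 and 2.97 against 2.91 and 3.58 RPKM, and Chd5 was below the limit, at 0.170 and 0.137 against 0.140 and 0.167 RPKM. Of the 5 tested ISWI genes, 1 was higher and 2 lower. The ATPase gene Smarca5 overlapped, at 9.99 and 9.65 against 10.3 and 8.43 RPKM, while Smarca1, at 0.0380 and 0.0348 against 0.0480 and 0.0411 RPKM, was below the limit. Baz1b overlapped, at 5.40 and 5.61 against 5.11 and 5.48 RPKM, and Baz2a was higher, at 3.95 and 3.80 against 4.12 and 4.74 RPKM. Of the 5 INO80 genes, 2 were higher and 0 lower, and the ATPase gene Ino80 overlapped, at 4.85 and 4.96 against 4.86 and 4.82 RPKM.

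**Figure D3:**
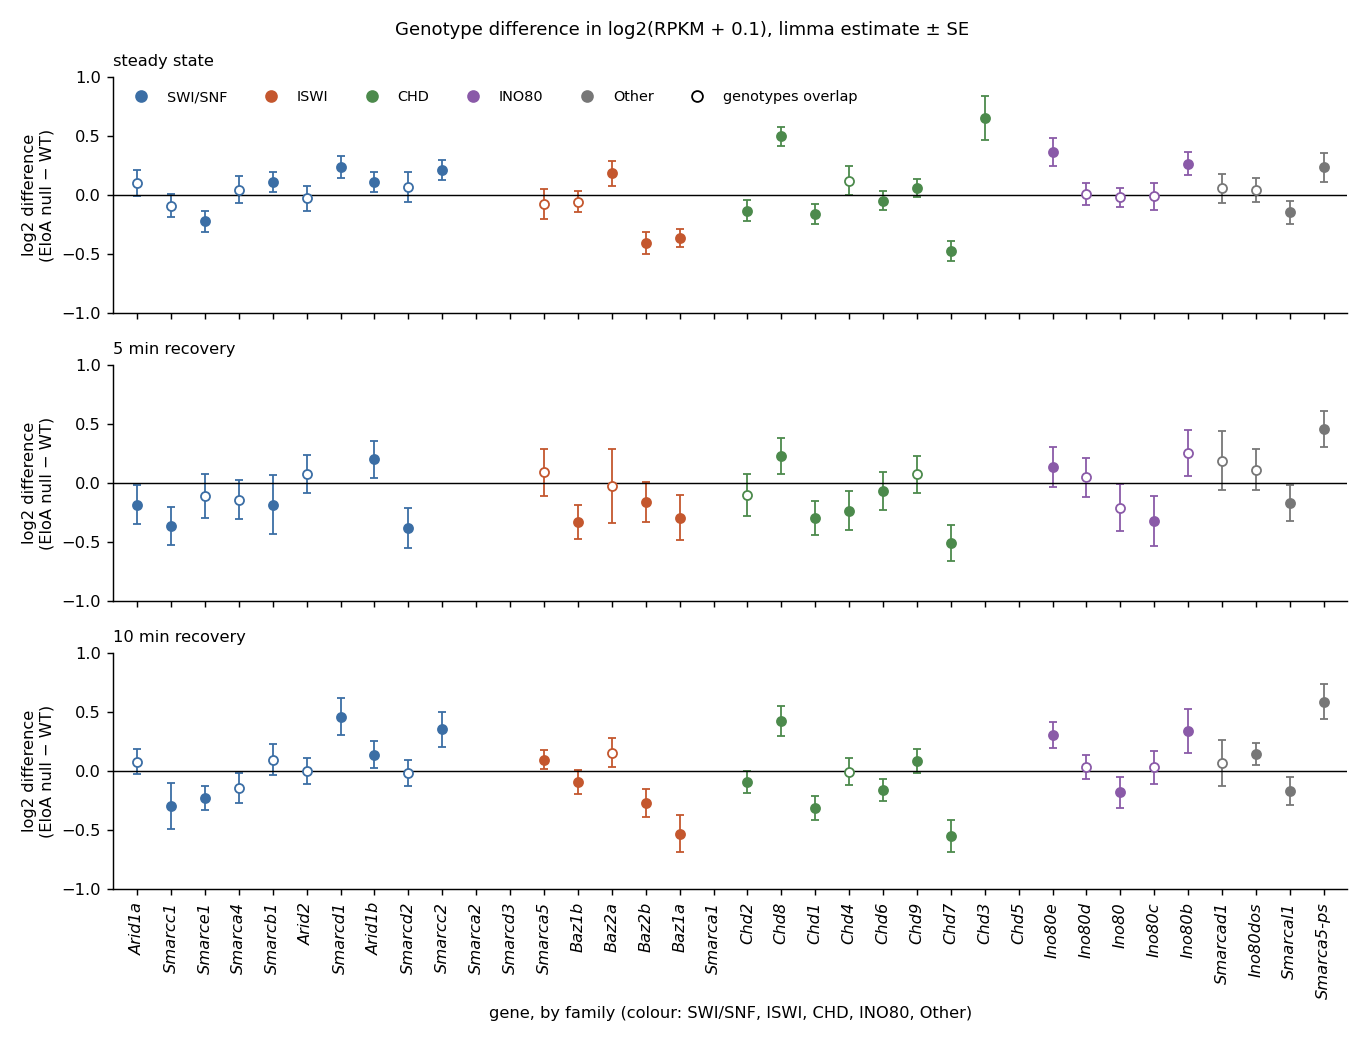
Difference in log2(RPKM + 0.1) between libraries labeled EloA null and WT (vertical axis, limma estimate ± SE) for each remodeller gene tested, in the 3 conditions, colored by family; open circles mark genes whose genotypes overlap. Chd7, Baz1a and Baz2b lie below 0 and Chd8 and Ino80e above 0 in all 3 panels.

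The difference of Chd8 was near that of its chromosome. In steady state the 416 tested genes of chromosome 14 had a median difference of 0.50, with quartiles of 0.36 and 0.68, and 97.6% of them were higher in EloA null. Chd8 was at 0.50. In the 2 EloA null libraries taken singly, the median of chromosome 14 over the WT mean was 0.52 and 0.47, and Chd8 was at 0.51 and 0.49. In recovery Chd8 was below its chromosome, at 0.23 ± 0.15 (SE) against a median of 0.46 over 348 genes at 5 min and at 0.42 ± 0.13 against 0.51 over 385 genes at 10 min. Chd8 was at 2.19 and 2.14 against 2.70 and 2.42 RPKM (WT against EloA null) at 5 min and 2.42 and 1.99 against 3.03 and 2.92 RPKM at 10 min. The part of the shift of chromosome 14 in the level of Chd8 was not tested.

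**Figure D4:**
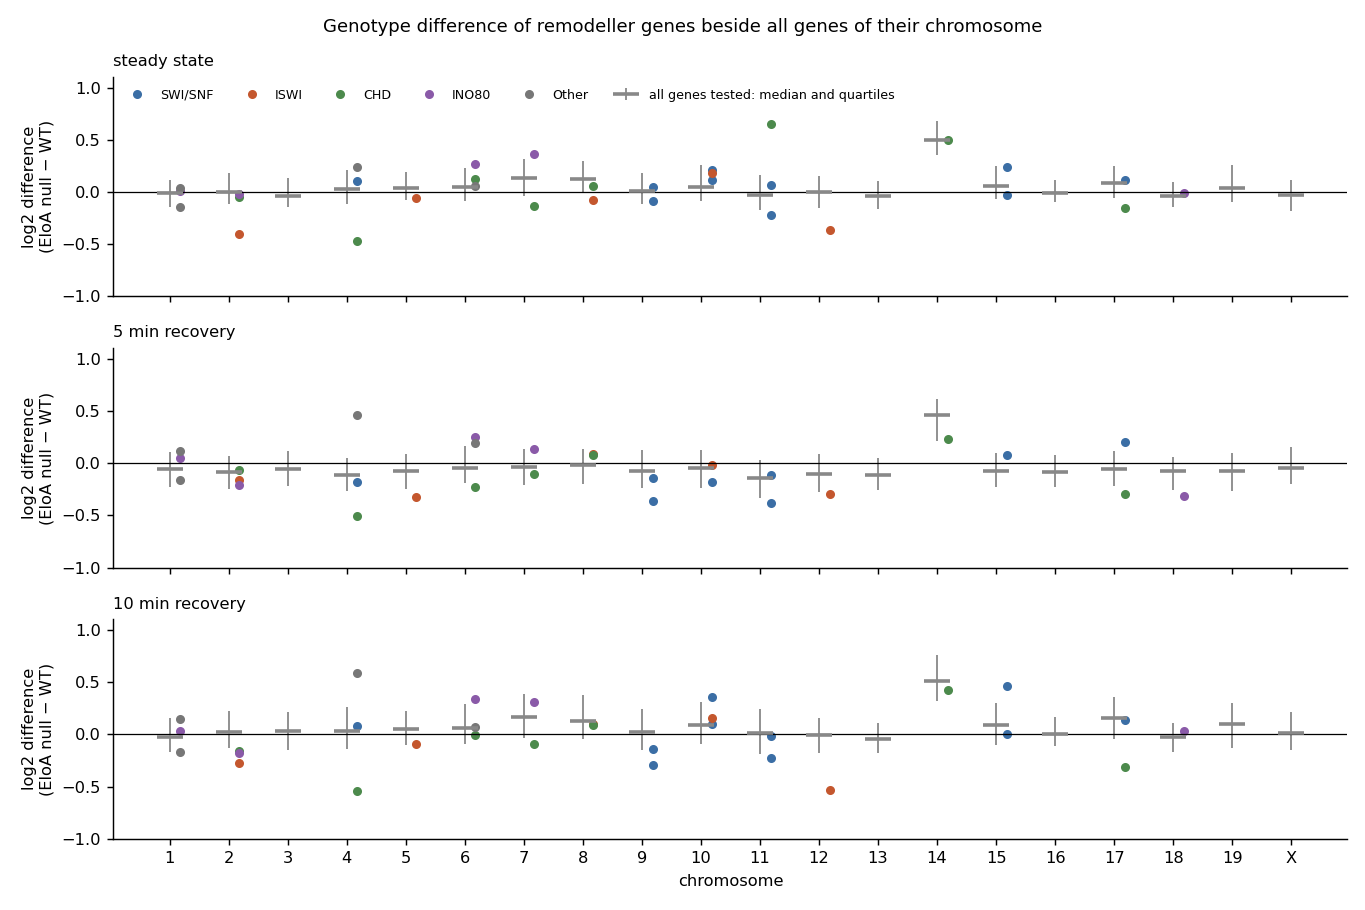
Genotype difference in log2(RPKM + 0.1) of the remodeller genes (points, colored by family) beside the median (bar) and quartiles (line) of all genes tested on the same chromosome, in the 3 conditions. Chromosome 14 has medians of 0.50, 0.46 and 0.51, and Chd8 is the point beside it.

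At 5 min of recovery, more remodeller genes were lower than higher in EloA null, by small margins. Of the 36 genes 29 passed the limit, of 8985 rows in all, and their median difference was −0.11 against −0.06 over all genes tested, and −0.04 with each library centered on its median. Past 1.5-fold, 0 of the 29 were higher and 0 lower, against 5.4% and 6.72% of all genes tested. Without overlap, 4 were higher (13.8%) and 13 lower (44.8%), against 15.4% and 25%. The 36 genes are longer, with a median of 59208 bases against 18829 over all genes above the limit in WT steady state. With the trend with gene length removed, their median difference was −0.04. The part of gene length in these counts was not tested. By limma, 0 of the 29 and 0% of all genes had an adjusted p below 0.05, and at an unadjusted p below 0.05 there were 2 of the 29 and 846 of all genes. Chd7 was at 1.24 and 1.38 RPKM in WT and 0.882 and 0.897 RPKM in EloA null, with no overlap and a difference of −0.51 ± 0.15 (SE, adjusted p = 0.471). The fit of all 12 libraries called 532 genes at 5 min (5.92%), of which Chd7 was the 1 remodeller gene, at an adjusted p of 0.0227. In the SWI/SNF family 4 of 8 tested genes were lower without overlap, among them Smarcc1, at 2.36 and 2.78 against 1.90 and 2.05 RPKM (WT against EloA null), and Smarcd2, at 1.22 and 1.05 against 0.914 and 0.786 RPKM. Smarcb1, also among the 4 and the 13, was at 0.572 and 0.503 against 0.480 and 0.444 RPKM. It passed the limit only through the WT libraries, where it was high. Arid1b, the longest of the 36 genes, was higher, at 2.63 and 2.56 against 3.19 and 2.83 RPKM. In the ISWI family Baz1b was lower, at 2.32 and 2.38 against 1.79 and 1.92 RPKM, and Smarca5 overlapped, at 9.83 and 8.78 against 8.84 and 11.1 RPKM.

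At 10 min of recovery, Chd7 and Baz1a were past 1.5-fold lower and Smarca5-ps past 1.5-fold higher in EloA null. Of the 36 genes 31 passed the limit, of 10241 rows in all, and their median difference was 0.03 against 0.06 over all genes tested. Past 1.5-fold, 1 of the 31 was higher and 2 were lower, against 9.41% and 3.01% of all genes tested. Without overlap, 10 were higher (32.3%) and 11 lower (35.5%), against 33.5% and 21.8%. The shares over all genes are not matched for gene length. Chd7 was at 0.902 and 0.974 RPKM in WT and 0.596 and 0.626 RPKM in EloA null, 1.54-fold lower, a difference of −0.55 ± 0.13 (SE, adjusted p = 0.163). Baz1a was at 0.684 and 0.753 RPKM in WT and 0.457 and 0.477 RPKM in EloA null, 1.54-fold lower, a difference of −0.53 ± 0.16 (SE, adjusted p = 0.193). In both genes the 2 libraries of a genotype lay close together, but Baz1a passed the limit of expression at 10 min only through the WT libraries, where it was high. Smarca5-ps was at 2.32 and 1.96 RPKM in WT and 2.98 and 3.57 RPKM in EloA null, 1.53-fold higher, on 162 to 382 reads in a library, and the median difference of genes of like length was 0.30.

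By limma, 0 of the 31 genes and 0% of all genes had an adjusted p below 0.05 at 10 min, and at an unadjusted p below 0.05 there were 7 of the 31 and 2098 of all genes. The fit of all 12 libraries called 264 genes (2.58%), among them Chd7 at an adjusted p of 0.0276 and Baz1a at 0.0316. Baz1a was tested at 10 min only because the WT libraries, where it was high, passed the limit. Without WT replicate 2, or with the trend with gene length removed, 0 of the 31 genes were past 1.5-fold in either direction. Without EloA null replicate 1 the lower genes past 1.5-fold were 1, and without WT replicate 1 the higher genes were 2. With the length trend removed, the differences of Chd7 and Baz1a were −0.51 and −0.47. Smarcd1 was the next higher gene, at 1.55 and 1.32 against 2.25 and 1.79 RPKM (WT against EloA null). Ino80, which overlapped in steady state, was at 1.96 and 2.40 against 1.94 and 1.87 RPKM, and Smarca5 was at 18.4 and 18.5 against 19.8 and 19.7 RPKM, with no overlap in either gene.

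Over the 29 genes tested in all 3 conditions, 6 were lower in EloA null without overlap in each (20.7%), against 10.1% of the 8217 genes tested in all 3. They were Chd1, Chd6, Chd7, Baz1a, Baz2b and Smarcal1. Of these, Baz1a passed the limit at 10 min only through the WT libraries, where it was high. Higher in EloA null without overlap in each condition were 4 (13.8%), against 8.79%, namely Chd8, Ino80e, Smarca5-ps and Arid1b. The shares of the 8217 genes are not matched for gene length. Chd1 was at 1.81 and 1.76 against 1.36 and 1.53 RPKM (WT against EloA null) at 5 min and 3.41 and 3.04 against 2.59 and 2.56 RPKM at 10 min. Baz1a was at 0.725 and 0.771 against 0.575 and 0.609 RPKM and Baz2b at 4.03 and 3.84 against 3.80 and 3.23 RPKM at 5 min, where the margin of Baz2b was narrow. Baz2b was at 1.60 and 1.79 against 1.31 and 1.47 RPKM at 10 min. Ino80e was at 5.14 and 5.14 against 5.35 and 5.98 RPKM at 5 min and 11.3 and 9.87 against 13.6 and 12.5 RPKM at 10 min, where its difference of 0.31 ± 0.11 (SE) became 0.07 with the GC trend removed. The conditions come from different libraries of the same cells.

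Whether the genotype difference itself differed between recovery and steady state was tested by the interaction term of a limma fit of all 12 libraries. For 5 min, 0 of 32 remodeller genes had an adjusted p below 0.05, against 0.1% of 11975 genes, and for 10 min 0 of 32 had, against 0.00835%. The smallest adjusted p of the 32 genes was 0.732 at 5 min, for Smarcd2, and 1 at 10 min. At an unadjusted p below 0.05 there were 2 of the 32 genes at 5 min and 0 at 10 min. The number over all 11975 genes was not counted, so these 2 are not read as a result.

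The genotype difference varied with gene length. In steady state the 5 tested remodeller genes under 15 kb had a median difference of 0.24 with 0 lower, against 0.14 over 5038 genes of that length. The 10 genes from 60 kb to 120 kb had a median of −0.02 with 6 lower, against −0.06 over 1268 genes. At 10 min the medians of these classes were 0.34 and −0.12, against 0.21 over 4764 and −0.09 over 1015 genes. At 5 min they were 0.20 over 4 genes and −0.16 over 10, against −0.01 over 3963 and −0.14 over 1066 genes. In steady state and at 10 min, short genes thus lay on the higher side in the list and over all genes, whereas at 5 min the median of all short genes was near 0.

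Of 61 names of partner subunits and other SNF2 ATPases outside the list, 59 were in the tables. In steady state 53 passed the limit, of which 16 were higher and 16 lower without overlap, against 32% and 21.4% of all genes tested, with a median difference of 0.03. These lists are small, and their counts are read against the same shares. Pbrm1 of the SWI/SNF partners, Actr8 of INO80 and Ercc6 of the other SNF2 ATPases lie on chromosome 14, whose median difference was 0.50. Their means were 2.82, 2.76 and 2.29 RPKM in WT and 3.63, 4.09 and 3.01 RPKM in EloA null. The part of the chromosome 14 shift in the counts was not tested. Of 9 NuRD partners 4 were higher and 0 lower, of 12 SWI/SNF partners 6 were higher and 1 lower, and of 14 partners of INO80, SRCAP and TIP60 4 were higher and 3 lower. Of 7 ISWI partners 0 were higher and 5 lower, and of 11 other SNF2 ATPases 2 were higher and 7 lower. Rbbp4 and Rbbp7 were counted with the ISWI partners alone, although NuRD holds their proteins too. Their means were 6.67 and 5.50 RPKM in WT and 6.37 and 4.76 RPKM in EloA null. The NuRD and ISWI counts thus depend on where these genes were placed. At 5 min 7 of 46 partners were higher and 14 lower without overlap, against 15.4% and 25% of all genes, and at 10 min 17 of 49 were higher and 15 lower, against 33.5% and 21.8%. By limma, 0 partners had an adjusted p below 0.05 in any condition. Past 1.5-fold in steady state was Znhit1, a subunit gene of SRCAP, at 0.800 and 0.777 RPKM in WT and 1.05 and 1.37 RPKM in EloA null. At 10 min Actr8, a subunit gene of INO80 on chromosome 14, was at 5.21 and 3.88 RPKM in WT and 7.09 and 6.63 RPKM in EloA null. The SWI/SNF gene Bicra was at 0.466 and 0.473 RPKM in WT and 0.818 and 0.681 RPKM in EloA null at 10 min, and it passed the limit only through the EloA null libraries, where it was high.

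After flavopiridol, the level of a remodeller gene relative to steady state varied with its length in both genotypes. For each recovery library, RPKM was divided by the steady-state mean of the same genotype; this is a description with no test, since the tables were normalized separately. In WT the mean ratio ran from 0.201 to 1.83 at 5 min over the 31 genes above the limit and was above 1 in 11. At 10 min it ran from 0.386 to 2.40 and was above 1 in 10. The 5 genes over 120 kb had medians of 1.28 and 1.28 in the 2 WT libraries at 5 min, against 1.32 and 1.31 over 732 genes of that length, and of 0.739 and 0.799 at 10 min, against 0.681 and 0.701. The 5 genes under 15 kb had medians of 0.788 and 0.787 at 5 min, against 0.794 and 0.711 over 4663 genes, and of 1.64 and 1.38 at 10 min, against 1.42 and 1.28. Long genes were thus relatively high at 5 min and short genes at 10 min, in the remodeller genes as in all genes.

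Of the 4 longest genes, Arid1b (352583 bases) had WT ratios of 1.86 and 1.80 at 5 min and 0.982 and 1.06 at 10 min, against medians of 2.00 and 0.877 for genes of like length at the 2 times. Baz2b had ratios of 1.28 and 1.22 at 5 min and 0.510 and 0.570 at 10 min, below its like-length medians of 1.53 and 0.737. Chd9 (225674 bases) had 1.16 and 1.28 at 5 min and 0.626 and 0.676 at 10 min. Chd7 had 1.01 and 1.13 at 5 min and 0.739 and 0.799 at 10 min, below its like-length median of 1.26 at 5 min and above that of 0.658 at 10 min. All 4 were higher at 5 min than at 10 min in both libraries. Of the 4 shortest, Ino80b (3355 bases) had 0.686 and 0.560 at 5 min and 1.25 and 1.05 at 10 min. Ino80e (9940 bases) had 0.788 and 0.787 at 5 min and 1.72 and 1.51 at 10 min, near its like-length medians of 0.750 and 1.72. Smarcd2 (9802 bases) had 1.12 and 0.962 at 5 min and 2.21 and 2.24 at 10 min. Smarca5-ps (3752 bases) had 1.37 and 1.53 at 5 min and 1.64 and 1.38 at 10 min, above its like-length medians of 0.802 and 1.27. Ino80b, Ino80e and Smarcd2 were higher at 10 min than at 5 min in both libraries, and Smarca5-ps overlapped between the times.

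Genes of similar length did not recover alike, and those named next were chosen after their values were seen. Smarce1 (21971 bases) had WT ratios of 1.18 and 0.914 at 5 min and 2.35 and 2.45 at 10 min, against like-length medians of 0.525 and 1.44. Smarcb1 (24846 bases), whose protein sits in the same complexes, had 0.214 and 0.188 at 5 min and 0.674 and 0.556 at 10 min, against 0.490 and 1.28. These genes of common SWI/SNF subunits thus lay on opposite sides of the medians of genes of their length. Smarce1 was above 83.0% of genes of like length at 5 min and 81.9% at 10 min, and Smarcb1 above 9.70% and 16.4%. Smarcd1 (11709 bases) had 0.282 and 0.192 at 5 min and 0.924 and 0.788 at 10 min, below the alternative subunit gene Smarcd2 in each library. Baz2a (36521 bases) had 0.941 and 1.12 at 5 min and 2.06 and 2.50 at 10 min, against 0.446 and 0.965. Smarca5 (39517 bases) had 1.00 and 0.895 at 5 min and 1.88 and 1.88 at 10 min, against 0.441 and 0.911. Both of these ISWI genes stood above genes of their length at both times, whereas Baz1b (58807 bases) had 0.422 and 0.433 at 5 min and 0.371 and 0.401 at 10 min, against 0.476 and 0.689. Smarca4 (88062 bases) had 1.17 and 1.23 at 5 min and 0.870 and 1.05 at 10 min, against 0.607 and 0.574. Chd6 (162109 bases) had 1.70 and 1.77 at 5 min and 1.00 and 1.03 at 10 min, against 1.15 and 0.621. Smarca4 and Chd6 were above genes of their length at both times. Arid2 (117942 bases) had 0.420 and 0.379 at 5 min and 0.568 and 0.542 at 10 min, against 0.814 and 0.567, and was low at 5 min. Over the 31 genes, 15 were above their like-length median at 5 min and 14 at 10 min. Above the upper quartile of genes of their length were 9 at 5 min and 6 at 10 min. Below the lower quartile were 6 and 5, so most lay between the quartiles of genes of like length.

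In the libraries labeled EloA null, Smarce1 had ratios of 1.09 and 1.16 at 5 min and 2.28 and 2.51 at 10 min and Smarcb1 had 0.166 and 0.153 at 5 min and 0.634 and 0.582 at 10 min. Arid1b had 2.07 and 1.83 at 5 min and 0.994 and 1.09 at 10 min. Baz2a had 0.653 and 1.19 at 5 min and 2.25 and 2.18 at 10 min, with its libraries far apart at 5 min. As in WT, Smarce1 was high and Smarcb1 low at both times.

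**Figure D5:**
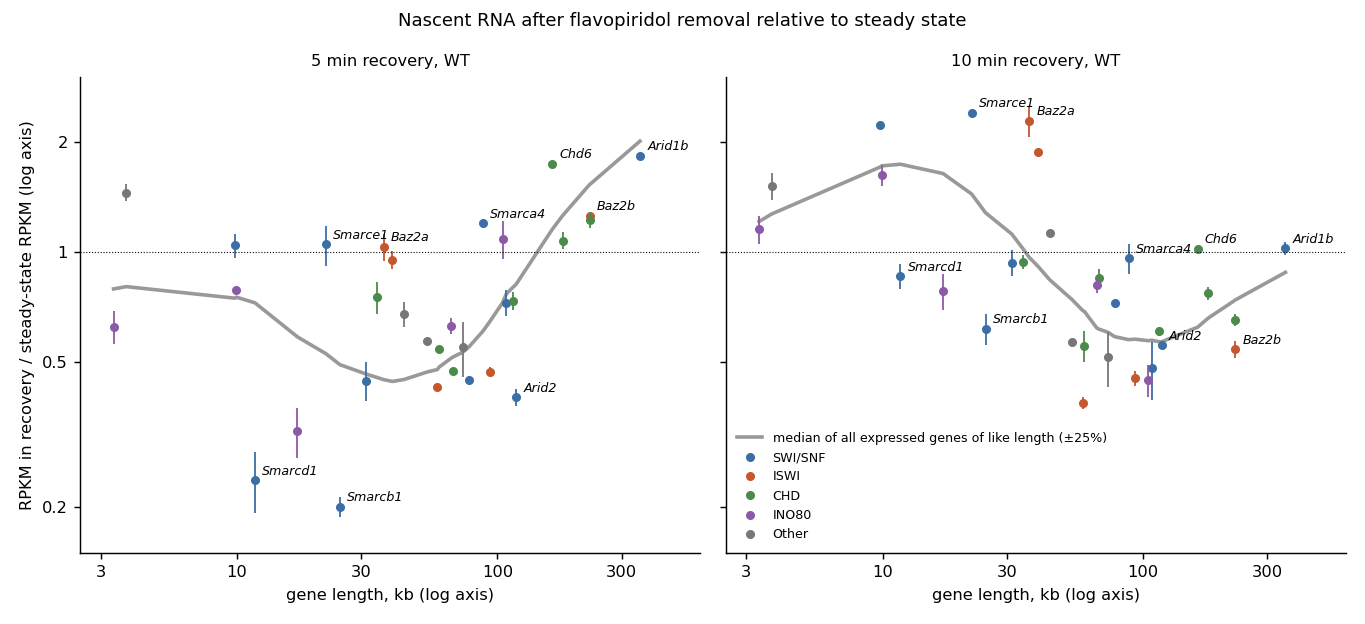
RPKM in recovery divided by steady-state RPKM in WT (vertical axis, log scale) against gene length in kb (horizontal axis, log scale) at 5 min and 10 min after flavopiridol was removed; points are means of 2 libraries colored by family, vertical lines join the 2 libraries, and the grey line is the median of expressed genes within 25% of the length. The 4 longest genes lie above 1 at 5 min, and Smarce1 and Baz2a lie highest at 10 min.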

How the data were processed

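Nascent RNA from 12 Bru-seq libraries was analyzed, with 2 WT and 2 EloA null libraries in each of 3 conditions; 16 further samples of the series (CUT&RUN and ChIP-seq) were not analysed here. The authors aligned reads to mm10 and dm3 with Bowtie2 (2.3.4.3), filtered for unique reads (SAMtools), ran featureCounts (1.6.1) over the full span of RefSeq genes and deposited RPKM values normalized with edgeR, in 1 table per condition. Libraries were directional, reads were separated by strand and Drosophila spike-in RNAs were added, but whether the gene counts used strand or the RPKM values were scaled to the spike-ins is not given in the sources used here. From 97.4% to 98.1% of the values checked in a library came out as whole reads (within 0.1) when the intron bases of a gene served as its length, for 33 of the 36 genes in all 12 libraries, so reads and library sizes are derived and describe depth only. Groups were taken from the sample titles.

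Genes with a mean above 0.5 RPKM in either genotype were tested within each table with limma (3.58.1, R 4.3.3, trend) on log2(RPKM + 0.1), with Benjamini-Hochberg adjustment over all genes tested, and a 1.5-fold ratio of mean RPKM was counted as well. The interaction was fitted over all 12 libraries. Ratios of related genes were compared by an exact two-sided permutation test (scipy 1.17.1). Fits were tested on simulated data. Gene positions came from RefSeq on GRCm38.p6, where 24420 of 24984 rows matched by symbol, 407 by an older symbol and 157 not at all. Genes were named in every library if they belonged to a pair of related genes, were Ino80, passed 1.5-fold without overlap, or had the 3 largest differences in either direction in steady state, and recovery ratios were named for the 4 shortest and 4 longest expressed genes. Other genes were named after their values were seen. The genes and lists were chosen with earlier results of these data known. Alternatives were another pseudocount, no filter, other scalings, removal of the trend with gene length or GC content (the latter chosen after seeing the data), a replicate block, a fit of all 12 libraries and leaving out each library.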

Additional observations from a re-analysis of the deposited data

Results flagged for a closer look

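Smarcb1, a gene of a common SWI/SNF subunit, was higher in both EloA null libraries in steady state, with a difference in log2(RPKM + 0.1) of 0.11, and lower in both at 5 min of recovery, with a difference of −0.18, without overlap between genotypes in either condition. At 5 min it passed the limit of 0.5 RPKM only through the WT libraries, where it was high. The difference between the conditions was tested by the limma interaction over all genes and was −0.29 with an adjusted p of 0.811, which does not pass 0.05.

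The Smarcd1/Smarcd3 log2 ratio was higher in both EloA null libraries at 5 min, by 1.17, and lower in both at 10 min, with a difference of −0.69. Smarcd3 had 1 to 3 reads in a library at 5 min and 6 to 20 at 10 min. From its reads alone the EloA null to WT ratio of Smarcd3 was 0.617 (95% exact interval 0.122 to 2.87) at 5 min and 2.23 (1.18 to 4.46) at 10 min, and these intervals cover counting error only. The difference of the ratio between conditions was not tested.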

How the results depend on the processing

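The 19 gene differences named by size kept their direction in all 228 alternatives and their side of the threshold in 225, and in the other 3 they became significant. No remodeller gene had an adjusted p below 0.05 in any alternative except the fit of all 12 libraries, which called 1 at 5 min and 2 at 10 min, and which called 132, 532 and 264 genes in all in steady state, at 5 min and at 10 min. In steady state, quantile normalization left 0 remodeller genes past 1.5-fold higher and 1 lower, and removal of the GC trend left 0 higher. Their median difference was −0.0155 with median centering and −0.0191 with quantile normalization, and 0.0137 to 0.0614 leaving out each library. At 5 min, without the filter, 1 was higher and 2 lower; leaving out each library gave 0 to 1 lower, 0 to 60 genes in all with an adjusted p below 0.05 and medians of −0.157 to −0.0404. The median was −0.0437 with median centering, −0.0359 with the length trend removed and −0.0377 with the GC trend removed. At 10 min the genes with an adjusted p below 0.05 were 5 with a pseudocount of 1, 12 with median centering, 6 with quantile normalization, 9 with the length trend removed, 11 with the GC trend removed and 0 to 33 leaving out each library. Remodeller genes past 1.5-fold higher at 10 min were 2 without the filter, 0 with median centering, quantile normalization or the length trend removed, and 0 to 2 leaving out each library, and those lower were 0 with the length trend removed, 1 with the GC trend removed and 0 to 2 leaving out each library. Their median was −0.0637 with median centering, −0.0609 with quantile normalization and −0.0215 with the GC trend removed. The interaction called 3 genes at 5 min and 4 at 10 min with a pseudocount of 1, and 2 to 28 (22 without WT replicate 2 of the 5 min table) and 1 to 4 leaving out each library. The Smarca5/Smarca1 difference at 10 min turned to 0.0428 with 0.1 RPKM added to both genes, and those in steady state and at 5 min shrank to −0.16 and −0.17. The WT median recovery ratio at 5 min was 0.664 against all 4 steady-state libraries and 0.695 with 0.1 RPKM added. The cause of these shifts was not tested.

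Libraries of the same number in the 2 genotypes deviated together weakly, with correlations of 0.10, 0.12 and 0.10 in the 3 conditions, and with 2 pairs they share only a number. A replicate block called 0, 128 and 0 genes in steady state, at 5 min and at 10 min, 0 of them remodeller genes, and 2 genes in the interaction at 5 min. Depth limits Smarcd3 most, at 1 to 25 reads in a library.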
